A study of Mus musculus with 2 samples.

Results

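Lyl1 was followed here as 1 gene among 27025 genes with a RefSeq start, in Scl chromatin immunoprecipitation reads of the HPC-7 line. It was chosen by the number of distinct Scl reads at its start, known from earlier results on these reads, and as the paralogue of the immunoprecipitated factor. Its reads were taken from chromosome 8, 87200001 to 87260000 in build mm9 and 87566207 to 87626206 in build mm8. The read counts at Lyl1 are therefore given as a description, with no test of enrichment. HPC-7 is a mouse line of early blood progenitors, derived from embryonic stem cells and kept in stem cell factor. Its chromatin was fixed in 0.4% formaldehyde and sheared to between 200 and 500 bp, and DNA of 1 immunoprecipitation was sequenced in 3 portions. Lanes 7 and 8, of which lane 8 received 2 times the DNA, form sample 1, and the portion read at another site is sample 2. There is 1 group, of 1 cell line, and no control library was used here. The samples are technical portions, so errors below measure counting and sequencing, not the spread between cultures.

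Lyl1 and Scl (Tal1) are closely related basic helix-loop-helix proteins of blood cells. Each pairs with a class I partner such as the Tcf3 product, and such pairs bind E-boxes, sites of the form CANNTG. In blood progenitors Scl also works in a complex with Lmo2, Ldb1 and a GATA factor, in which the GATA protein can hold the complex on DNA. Lyl1 was first found through a translocation in T-cell leukaemia, and Ets and GATA factors have been reported to act on its promoter.

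Sample 1 held 5632119 distinct reads on chromosomes 1 to 19, X and Y, counted once per strand and 5′ end, and sample 2 held 4150610. Of these, 674 and 380 fell in the 60 kb around Lyl1. An average 200 bp of the genome held 0.593 reads in sample 1 and 0.437 in sample 2, or 2.96 and 2.18 per kb. These averages used 1.9e9 bp, which is less than the full genome. Chromosome 8 held 3.28 and 2.34 reads per kb of nearly its full length. How much denser chromosome 8 was cannot be read from densities on unlike bases. Among 200 bp windows, 6.67% and 3.14% on chromosome 8 reached 5 times the genome average, against 3.22% and 1.47% over the genome. The gene's start was placed at 87591562 in mm8 by 2 sample 2 reads that matched the RefSeq promoter sequence without a difference. The matching place in mm9 is 87225356, by the offset at which 50 read ends of both samples coincided, against 34 at the next best offset.

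Scl reads gathered most at 3 places in the locus, and the most lay just inside the gene. The summit was 212 bp after the Lyl1 start in sample 1 and 203 bp after it in sample 2, at 87225568 in mm9 and 87591765 in mm8. The next place was 29.5 kb downstream, at 87254884 in mm9 and 87621089 in mm8. The remaining one was 1.4 kb upstream, at 87223997 in mm9 and 87590188 in mm8. In RefSeq gene order Trmt1 lies before Lyl1 and Nfix after it. Nfix is read from the opposite strand, from a start 78625 bp downstream of the Lyl1 start, so the downstream place lay between the starts of Lyl1 and Nfix. The nearest start that could be placed was that of a non-coding gene, 21600 bp downstream of the Lyl1 start. The upstream place lay on the side of Trmt1. Where these genes end was not analysed here, so whether a gene runs over the downstream place is not known. The distances of the Nfix start and of the start of the non-coding gene were the same in mm8, by read matches, and in the RefSeq build GRCm38.p6. Exons and introns were not analysed here.

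The sequences under the 3 places differed in the sites they held, and they are shown because each carried another arrangement of E-boxes, GATA sites (GATAA or GATAG, preceded by an A or a T) and ETS cores (GGAAA or GGAAG, preceded by an A or a C). All were read from sample 2, plus strand, 5′ to 3′, build mm8. Capitals mark E-boxes, GATA sites and ETS cores, on either strand. Under the Lyl1 summit 22-base pieces around each ETS and GATA match are given:
Lyl1 start, ETS core before the summit, chr8:87591715-87591736: cccgctggTTTCCTccggggtc
Lyl1 start, first GATA site, chr8:87591740-87591761: attgcttcTTATCAgccgcggc
Lyl1 start, second GATA site, chr8:87591769-87591790: ccagacccTTATCTgcacaggc
Lyl1 start, ETS core after the summit, chr8:87591821-87591842: taagagggAGGAAGccaggctg
29.5 kb downstream, chr8:87621011-87621111: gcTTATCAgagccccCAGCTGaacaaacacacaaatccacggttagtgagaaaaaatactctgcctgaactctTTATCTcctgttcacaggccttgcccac
1.4 kb upstream, chr8:87590176-87590287: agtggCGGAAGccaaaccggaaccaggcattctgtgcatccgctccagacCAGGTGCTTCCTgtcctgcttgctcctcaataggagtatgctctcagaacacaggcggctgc

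Within 100 bp of the Lyl1 summit, where all 200 bases were covered by at least 2 reads (median 8, highest 18), there were 2 GATA sites, 2 ETS cores, 2 CACCC boxes (the core of KLF sites) and 0 E-boxes. The GATA sites, TTATCA and TTATCT as printed above, were both on the minus strand, with 23 bases between them. Their centres lay at -14.5 and 14.5 bp from the sample 2 summit, and at -23.5 and 5.5 bp from the sample 1 summit. All reads gave the bases of the first GATA site, and 1 base call differed in the second. The ETS cores lay farther out, at -39.5 and 66.5 bp from the sample 2 summit, and 4 base calls differed from the letters of the latter. Within 200 bp, where 348 of 400 bases were covered, there were also 0 E-boxes.

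These counts can be read against 200 bp windows at 32851 RefSeq promoters (150 before to 50 after the start, build GRCm38.p6), searched on both strands. An E-box was present in 57.7% of them, at least 1 GATA site in 19.8%, 2 or more GATA sites in 3.63%, an ETS core in 51.7%, CACCC in 44.9%, and a GATA site without any E-box in 7.18%. The Lyl1 window had 67.0% G and C, against a median of 54% over the promoter windows. RUNX cores (TGTGGT or TGCGGT, in 15.5% of promoter windows) and AP-1 sites (TGACTCA or TGAGTCA, 3.60%) had no match in it. The E-boxes CATATG and CATCTG, in 13.7% of promoter windows, were likewise not found.

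The downstream place held the arrangement described for Scl complexes, an E-box followed by a GATA site. On the minus strand CAGCTG was followed after 7 bases by TGATAA, with the centre of the pair at -67 bp from the summit. Such a pair, at 7 to 9 bases, was present in 0.426% of the promoter windows, and CAGCTG alone in 11.9%. Shares in windows outside promoters were not computed, for this place or the upstream one. The E-box was covered by 2 to 3 reads and the GATA site of the pair by 1 read, so its letters rest on a single read. A further GATA site, covered by 4 to 5 reads, lay at -2.5 bp. Of this window 192 of 200 bases were covered, with 54.7% G and C.

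The upstream place had no GATA site in the 156 of 200 bases that were covered. It held 2 ETS cores, at -4.5 and 46.5 bp from the summit, the first of them read by 1 read. The E-box CAGGTG, present in 13.8% of promoter windows, lay at 40.5 bp, next to the second ETS core, with both read by 2 to 3 reads. G and C made up 55.8% of the covered bases.

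**Figure D1:**
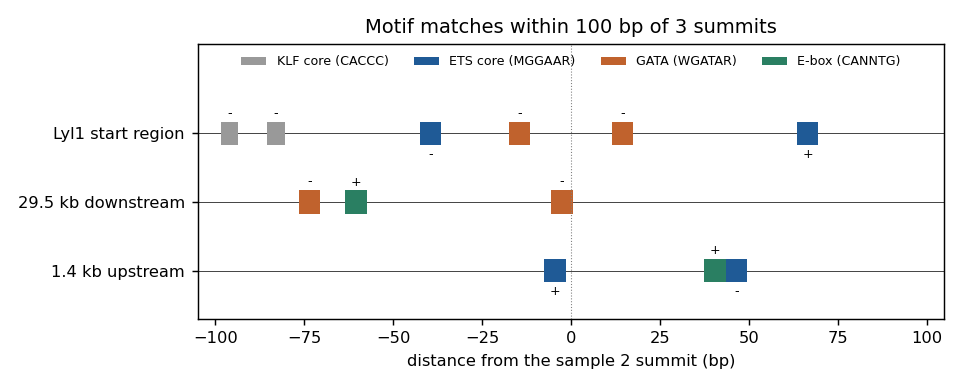
Motif matches within 100 bp of the sample 2 summit at the 3 places, by distance from the summit in bp, with the strand of each match as + or -. The 2 GATA sites stand on either side of the summit inside Lyl1, where there is no E-box, and an E-box stands beside a GATA site at the downstream place.

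Just upstream of the start, reads were far fewer than at the summit. The 200 bp window over the start, 87225201 to 87225400 in mm9, held 5 reads of sample 1 and 4 of sample 2. The next window, with the most reads, held 91 and 51. A stricter count, unlike those at the summit, took whole reads only. In sample 2, 2 distinct reads lay wholly in the 300 bp from 250 before to 50 after the start and matched them. The median gene that could be placed had 1 such read, 793 genes had more than Lyl1 and 2240 had as many. Of the bases before the start, 216 are shown as the contrast to the summit sequence, from RefSeq, chr8:84701207-84701422 in GRCm38.p6, plus strand, with the same capitals:
Lyl1 upstream: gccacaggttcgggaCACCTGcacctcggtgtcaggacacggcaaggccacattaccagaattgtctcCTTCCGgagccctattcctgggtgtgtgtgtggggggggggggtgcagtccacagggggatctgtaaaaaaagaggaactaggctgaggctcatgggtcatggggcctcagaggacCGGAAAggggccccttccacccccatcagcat

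This stretch held 1 E-box, CACCTG, at -235 bp from the start, and 2 ETS cores, at -182 and -66 bp. There was no GATA site in it.

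The 200 bp at the Lyl1 summit held 119 distinct reads of sample 1, with a 95% interval by the exact Poisson method from 98.6 to 142. They held 59 of sample 2 (44.9 to 76.1). Read ends had been moved by 0.5 times the fragment length for these counts, and the intervals cover counting error only. Most reads lay close to the summit. In sample 1, 82 were within 50 bp, 37 from 50 to 100 bp, 19 from 100 to 200 bp and 16 from 200 to 500 bp. The corresponding sample 2 counts were 43, 16, 6 and 7. Both samples were narrow in the same way.

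Over the mean of the surrounding 10 kb sample 1 was 22.4-fold higher at the Lyl1 summit, and for sample 2 the same ratio was 22.5. Their mean was 22.4 ± 0.107 (SD, n = 2 samples, which are repeat sequencing of 1 immunoprecipitation). The 10 kb includes the summit itself. Without the 1 kb on each side the values were 45.3-fold and 40.7-fold, and over the chromosome 8 average they were 181-fold and 126-fold. The order of the samples thus also differed between backgrounds.

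The downstream place had 28 reads in sample 1 (18.6 to 40.5) and 17 in sample 2 (9.90 to 27.2), or 12.2 and 11.8 times the mean of its surrounding 10 kb. The upstream place had 26 (17 to 38.1) and 13 (6.92 to 22.2), at 5.0 and 4.85 times a background that includes the Lyl1 summit. The Lyl1 summit was the fullest 200 bp of a locus chosen for its reads, so these counts are given side by side with no comparison.

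**Figure D2:**
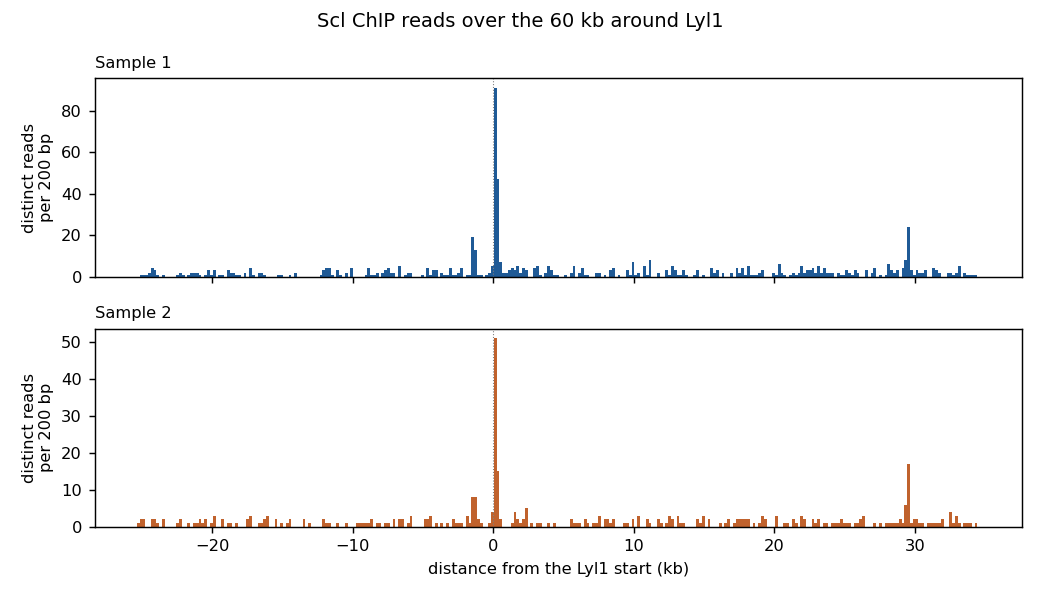
Distinct reads per 200 bp (y axis) over the 60 kb locus by distance from the Lyl1 start in kb (x axis), for sample 1 above and sample 2 below. The highest window holds 91 and 51 reads, and lower peaks stand 1.4 kb upstream and 29.5 kb downstream in both.

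Counted on a fixed grid of 300 windows of 200 bp, 78 windows of sample 1 and 26 of sample 2 reached 5 times the genome average, which took 3 reads in each. Over the genome 3.22% of sample 1 windows and 1.47% of sample 2 windows did so, and on chromosome 8 6.67% and 3.14%, against 26% and 8.67% in the locus. Because these reads chose the locus, nothing is read from the difference. In both samples together 13 windows passed, in 9 separate stretches, and 6 passed at 10 times the genome average, which 0.123% of sample 1 windows and 0.0936% of sample 2 windows of the genome reached. The window with the most reads, 87225401 to 87225600 in mm9, held 91 and 51 reads. In the whole genome 36 windows of sample 1 and 70 of sample 2, this one included, held as many or more. The adjoining window held 47 and 15, and the leading window of the downstream place 24 and 17. The upstream place was split over a pair of windows with 19 and 8, and 13 and 8 reads. The 5 other windows among the 10 with the most reads held 3 to 8 reads in sample 1 and 3 to 6 in sample 2.

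Outside the peaks the locus was also above the genome average. Without the 1 kb around each of the 3 places, the 10 kb stretches of the locus held 5.70 to 9.75 reads per kb in sample 1 and 3.40 to 5.10 in sample 2, against 2.96 and 2.18 over the genome. The stretch around the gene was the densest in sample 1, at 9.75, but not in sample 2, at 4.88, where the stretch from 14.6 to 24.6 kb downstream reached 5.10. The 3 places took up 34.0% of the reads of the locus in sample 1 and 31.3% in sample 2.

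At each place the median plus-strand end lay before the median minus-strand end. Within 300 bp of the Lyl1 summit sample 1 had 72 plus-strand and 71 minus-strand ends and sample 2 had 29 and 40. The median minus-strand end lay 127.5 bp after the median plus-strand end in sample 1 and 123.5 bp after it in sample 2, near the fragment lengths of 115 and 116 bp over the whole genome. At the downstream place the distance was 111.5 bp in both samples. At the upstream place it was 173 and 166 bp, on 23 plus and 11 minus ends in sample 1 and on 7 and 11 in sample 2.

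**Figure D3:**
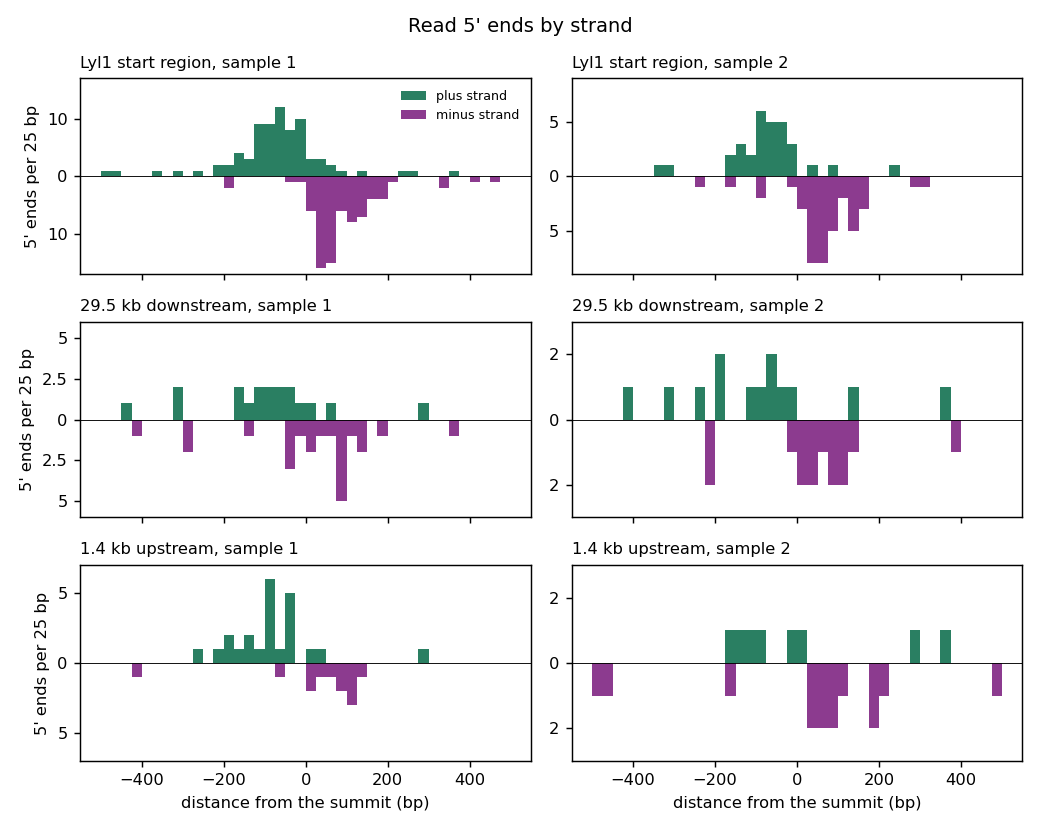
Read 5′ ends per 25 bp by distance from the summit in bp, plus strand upward and minus strand downward, at the 3 places (rows) in both samples (columns). At Lyl1 the plus-strand ends pile up before the summit and the minus-strand ends after it, with medians 127.5 and 123.5 bp apart.

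Whether the lanes differed at Lyl1 was tested, since the choice of the gene did not use lanes. In the 400 bp around the summit lane 7 had 55 distinct reads (41.4 to 71.6) and lane 8 had 102 (83.2 to 124). Lane 8 thus gave 65.0% of the reads (exact binomial 95% interval 57.0 to 72.4), against 71.4% of all distinct reads of both lanes, and the difference did not pass (two-sided exact binomial test, p = 0.0776, also after adjustment over the 2 splits computed). Within 100 bp of the summit the share was 62.3% and passed (p = 0.0233, same exact test, not adjusted). The lanes hold DNA of the same immunoprecipitation and shared 19 ends, so their reads may not be fully independent draws. How many ends independent draws would share in so narrow a peak was not computed. Sample 1 gave 138 of the 203 reads of both samples in that span, 68.0%, against 57.6% of all distinct reads and 62.6% of the reads in the locus without the 1 kb on each side of the summit. A binomial test of this share was computed but is not used, because the sample counts chose the gene and the samples share ends.

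Scaled by the total of distinct reads, as RPM, the 400 bp held 33.6 in lane 7, 25 in lane 8 and 15.7 in sample 2. Their totals were 1635454, 4084113 and 4150610 distinct reads. Lane 8 and sample 2 were close in depth, but differed in read length (45 bp against 23 to 32 bp), aligner and build. The cause of the differences in RPM was not tested. With every read counted in place of distinct ends, lane 8 held 65.2% and sample 1 held 71.2%. Of the 65 ends of sample 2 at Lyl1, 33 were also in sample 1 (50.8%). At the downstream place 2 of 20 sample 2 ends were shared, and at the upstream place 0 of 16. The offset that defines a shared end was itself chosen for the most coincident ends in the locus, 50 against 34 at the next best offset. The shared ends are thus no separate measure of agreement. Ends were also denser at Lyl1 than at the other places, and how many would coincide by density alone was not computed. The part of these shared ends in the agreement of the samples was not tested.

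**Figure D4:**
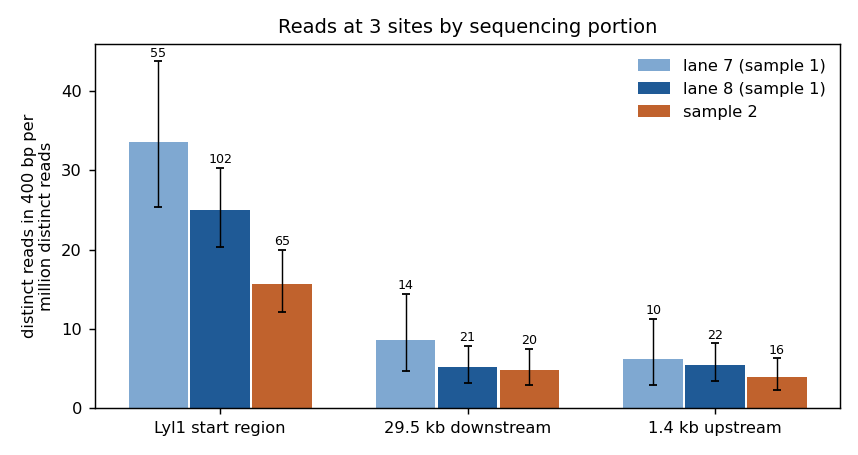
RPM of distinct reads in 400 bp (y axis) at the 3 places (x axis), for lane 7, lane 8 and sample 2. Bars carry exact Poisson 95% intervals and the read numbers, and Lyl1 holds 55, 102 and 65 reads.

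Set against the other genes that could be placed, the Lyl1 start was among those with the most Scl reads in sample 2. Lyl1 was chosen by its reads, so a high place was fixed in advance and is given as a description only. RefSeq promoters were matched to sample 2 reads, and the starts of 10062 genes could be placed in mm8, each by at least 1 matching read. Within 500 bp of the start Lyl1 had 72 reads (exact Poisson 95% interval 56.3 to 90.7), and 1 gene of the 10062 had more, Gm33862 with 102, which is named because of its value. The median was 4 reads, and 99% of genes had at most 11. Starts with no matching read wholly in the 300 bp from 250 before to 50 after them could not be placed, and 34.5% of promoters were. Genes with few reads are therefore missing from this order. Genes whose reads lie outside those 300 bp can be missing too, even with many reads, and Lyl1 itself was placed by only 2 reads. Its place in the order thus holds among the placed genes only.

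Of 23 listed genes, 17 had a start in the promoter table and 6 could be placed. Among blood stem cell factors, Tal1, the gene of Scl itself, had 4 reads (1.09 to 10.2) and Erg, an ETS factor, also 4, both at the median, and Gata2, a GATA factor of progenitors, had 2 (0.242 to 7.22). Cbfa2t3, a corepressor found in Scl complexes, had 27 (17.8 to 39.3) and place 10 in the order. Nfix, the neighbour whose start lies beyond the downstream place, had 5 (1.62 to 11.7) at its start. Of the listed genes placed, only Lyl1 and Cbfa2t3 had more than 11 reads. For a gene with several starts, the placed start with the most reads was counted. The promoter table held 2 starts for Tal1, 3 for Erg and 2 for Gata2, and starts that could not be placed were not counted. Reads at enhancers away from a start do not enter these counts.

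**Figure D5:**
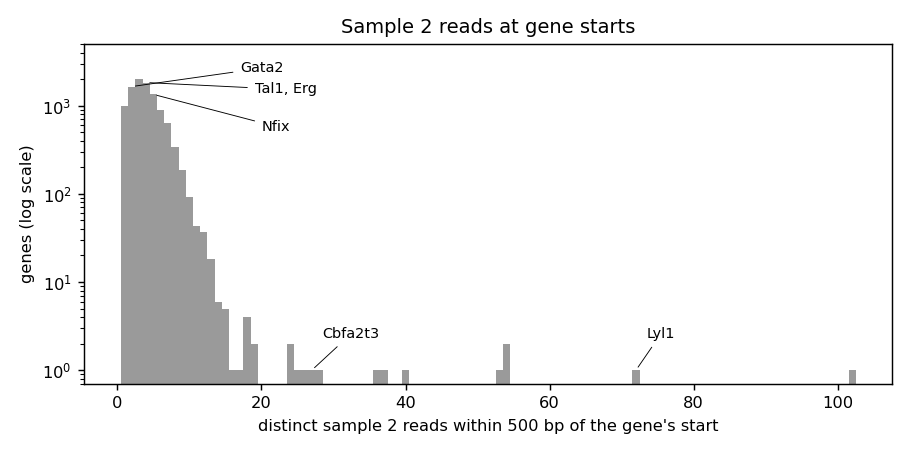
Number of genes (log scale) by distinct sample 2 reads within 500 bp of the start, for 10062 genes, with the 6 placed genes of the list named. Lyl1 stands at 72 reads and Cbfa2t3 at 27, and the other listed genes lie between 2 and 5, in the bulk.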

How the data were processed

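The deposited sample 1 file lists each aligned read of 45 bp with a score, and in sample 2 the deposited list of uniquely placed reads holds each sequence and counts of genome matches with 0, 1 and 2 errors. The deposited text names the Solexa software (build mm9) and Eland (build mm8) as aligners, without versions. Positions were not converted: the locus was placed in mm8 by the offset with the most coincident read ends, and each place is given in its own build. Fragment lengths were the distance with the most plus and minus end pairs (mean over 11 distances, without windows of over 20 reads). The summit was the median moved end in the fullest 200 bp. The genome average used 1.9e9 bp. Sequences were the most frequent base over sample 2 reads. Promoters were matched with Python 3.11.15 (numpy 2.4.6, scipy 1.17.1) by whole reads, and the window and match steps were tested on simulated data.

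Lyl1, the gene list and the tests were chosen with earlier results of these data known. By the naming rule, the 10 windows past 5 times the genome average in both samples with the most reads, and listed genes, are named. Counting reads within 500 bp of gene starts, the chromosome 8 average and the 3 places were chosen after the data were seen. RefSeq positions of GRCm38.p6 were used for names, gene order, the start distances compared above and the place of the printed upstream sequence.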

Additional observations from a re-analysis of the deposited data

Results flagged for a closer look

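Reads of sample 2 without a unique match were searched for the 400 bp around each place, with up to 5 differences. A count above the 3 that a count of 0 allows was found in 3 searches. Among reads with several matches, 4 lay on the Lyl1 sequence, against 1 on its letters in reversed order, and 13 on the downstream sequence, against 14. Among reads with no match, 4 lay on the downstream sequence, against 0 on the reversed letters. None of these reads matched without a difference, and they enter no count above. Groups of 2 samples were too small to look for outlying samples.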

How the results depend on the processing

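Of 46 alternatives, 32 stayed within the tolerance (1 SD between the samples for a value, 1.5 times for a count) or on the same side of a threshold of 0.05, 12 moved past the tolerance and 2 crossed the threshold. The SD of the enrichment is small, so small shifts of it count as moved. The mean enrichment at Lyl1, 22.4-fold, was 50.4-fold over 50 kb, 43-fold without the 1 kb each side, 168-fold over the genome average and 154-fold over the chromosome 8 average (added after the data were seen). It was 24.5-fold with all reads, 18-fold with unmoved ends, 23.6-fold without mismatches and 12.7-fold in 400 bp, and 22.4 to 22.5 with 1 sample left out. The lane 8 share was 62.3% within 100 bp and then passed (exact binomial p = 0.0233). The sample 1 share, 68.0%, crossed the threshold the other way against the split of the locus, but its test is not used. Windows past 5 times the genome average in both samples, 13, were 9 with all reads, 16 with unmoved ends, 15 with the grid moved by 100 bp and 26 to 78 with 1 sample alone. They were 6 at 10 times and 43 at 3 times the average. The 0 E-boxes and 2 GATA sites at Lyl1 were found under each of 5 alternatives, 1 of them added. At the downstream place, with 1 E-box and 2 GATA sites, there were 0 and 1 within 50 bp, and 1 and 1 with at least 2 reads per base. At the upstream place the E-boxes were 3 instead of 1 within 200 bp. No paired analysis was possible because there is only 1 group. Depth limits the weaker places: their letters rest on 1 to 6 reads.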
